A study of Mus musculus with 40 samples.

Results

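Collagen chain genes were taken as every row of the expression table whose symbol reads Col, a number, the letter a and another number. This rule found 44 of the 20953 genes in the table. Collagens are extracellular proteins built of 3 chains that wind into a triple helix, and each chain has its own gene. Fibrillar chains form the fibres of skin, bone and the meninges, network chains form basement membranes such as those around brain vessels, FACIT chains attach to fibrils, and transmembrane chains sit in the cell membrane. In the brain, most collagen RNA is known from cells of vessels, meninges and the choroid plexus, while a few chains are made by neurons.

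RNA was sequenced from dorsal hippocampus punches of 40 mice, with 1 library per mouse. Young wildtype mice (YWT, C57BL/6J, from 2 to 4 months old) came from an earlier study. Old wildtype mice (OWT, HDAC3+/+, from 18 to 20 months old) and their old HDAC3flox/flox littermates (H3F) had both received AAV-CaMKII-Cre in the dorsal hippocampus before training. The CaMKII promoter drives Cre in excitatory neurons, so the deletion of the histone deacetylase HDAC3 in H3F mice was local and partial, and OWT mice carried the same virus without floxed alleles. Mice were killed 60 min after object location memory training (OLM, libraries named BV) or taken from the homecage (HC), with 8 and 8 H3F, 6 and 6 OWT, and 6 and 6 YWT mice in OLM and homecage groups. No infusion is described for YWT mice, so between OWT and YWT mice the effects of age cannot be told apart from those of study and infusion. The study reports both sexes in every group, in shares that differed between YWT, OWT and H3F mice. The labels do not give the sex of each mouse, so sex was not modelled and its effects were not separated.

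Hdac3 stood at 18.4 ± 4.35 RPKM after OLM and 16.2 ± 1.62 RPKM in the homecage in H3F mice (SD, n = 8 each). In OWT mice it stood at 30.3 ± 1.89 RPKM after OLM and 29.97 ± 1.63 RPKM in the homecage (SD, n = 6 each). RPKM are read counts scaled by the exon length of a gene and by the mapped reads of its library, so levels can be set beside each other between genes. The values hold no read totals. From 1627 genes with values near that of a single read, the depth of the libraries was estimated to span 3.06-fold. Markers of dentate granule cells, CA1 and CA3 were present in each of the 40 libraries, with summed dentate markers between 14.7 and 266 RPKM. How markers of brain regions differed between OWT and YWT mice is given with those comparisons. Summed markers of the choroid plexus, the secretory epithelium beside the hippocampus, exceeded 1000 RPKM in 9 libraries (1592 to 9270 RPKM) and lay between 5.83 and 287 RPKM in the other 31. In a punch, fewer cells of a type and less RNA per cell cannot be told apart.

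The pair of genes for the main chains of the vascular basement membrane, Col4a1 and Col4a2, lies head to head on chromosome 8 of GRCm38.p6, and so does the pair Col4a5 and Col4a6 on chromosome X. These 4 promoter windows of RefSeq, each from 250 bases before to 50 after a start of transcription, are shown because the chains of both pairs varied together across mice and were among those that differed between OWT and YWT mice. Col4a1 (chr8:11312777-11313076, reverse strand) and Col4a2 (chr8:11312555-11312854, forward strand) start 21 bases apart and share 78 bases, printed in capitals. Col4a5 (chrX:141475169-141475468, forward strand) and Col4a6 (chrX:141474027-141474326, reverse strand) start 1343 bases apart, share no base of their windows, and have the GC box GGGCGG, read on either strand, in capitals.
Col4a1: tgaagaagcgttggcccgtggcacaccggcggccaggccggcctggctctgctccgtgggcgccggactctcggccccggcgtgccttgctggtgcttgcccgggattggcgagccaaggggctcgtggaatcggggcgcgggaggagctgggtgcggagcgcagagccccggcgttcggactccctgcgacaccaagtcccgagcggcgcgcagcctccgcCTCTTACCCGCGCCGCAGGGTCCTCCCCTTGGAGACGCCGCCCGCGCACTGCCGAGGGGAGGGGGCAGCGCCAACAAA
Col4a2: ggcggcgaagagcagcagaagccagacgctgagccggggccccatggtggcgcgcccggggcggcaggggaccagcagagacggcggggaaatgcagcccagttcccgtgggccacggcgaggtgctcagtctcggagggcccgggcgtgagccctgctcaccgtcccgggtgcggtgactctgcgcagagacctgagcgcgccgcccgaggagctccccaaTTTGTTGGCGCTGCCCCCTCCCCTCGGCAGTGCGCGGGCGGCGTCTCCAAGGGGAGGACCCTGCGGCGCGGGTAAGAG
Col4a5: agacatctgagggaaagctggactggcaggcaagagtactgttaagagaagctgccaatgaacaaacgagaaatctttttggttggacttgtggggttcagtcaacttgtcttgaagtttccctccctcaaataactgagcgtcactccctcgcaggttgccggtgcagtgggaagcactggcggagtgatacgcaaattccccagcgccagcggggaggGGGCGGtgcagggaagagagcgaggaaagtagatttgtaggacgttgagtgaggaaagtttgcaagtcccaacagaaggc
Col4a6: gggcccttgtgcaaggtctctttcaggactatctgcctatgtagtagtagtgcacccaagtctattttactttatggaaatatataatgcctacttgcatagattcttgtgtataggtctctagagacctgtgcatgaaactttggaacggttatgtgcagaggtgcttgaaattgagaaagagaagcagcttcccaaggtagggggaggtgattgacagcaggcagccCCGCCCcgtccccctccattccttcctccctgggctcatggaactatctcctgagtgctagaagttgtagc
Windows were found for 35 of the 44 genes (38 windows, as some genes have more than 1 start). Searched on both strands, the GC box GGGCGG was in 23 of these 38 windows (60.5%), against 35.7% of 32851 promoter windows of all genes. The TATA box TATAAA was in 5 windows (13.2%), against 13.6%, and the letters CCAAT were in 13 (34.2%), against 37.4%. These matches describe the letters only. Because the sequencing did not keep strand, reads from the overlapping first exons of Col4a1 and Col4a2 could not be assigned by strand.

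Of the 44 genes, 26 had a mean of at least 0.5 RPKM over the 40 libraries and were tested among 14173 genes. The other 18 were Col2a1, Col4a3, Col4a4, Col5a3, Col6a3, Col6a4, Col6a5, Col6a6, Col7a1, Col9a1, Col10a1, Col13a1, Col14a1, Col17a1, Col22a1, Col24a1, Col26a1 and Col28a1, with means between 0.0236 RPKM and 0.496 RPKM. Col12a1, at 0.541 RPKM, was the member just above the minimum and Col5a3, at 0.496 RPKM, the one just below. By class, 8 of 11 fibrillar, 6 of 9 network, 6 of 9 FACIT, 2 of 4 transmembrane and 4 of 11 beaded, multiplexin and other chains were tested. Collagen RNA was sparse in this tissue. Only 4 chains had a mean above 5 RPKM, against a median of 7.87 RPKM over all genes tested.

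Col9a3, a chain of the FACIT collagen IX, had the highest mean (8.79 RPKM), with a median of 5.83 RPKM and a range from 3.11 to 38.1 RPKM. Next came Col25a1 at 8.42 RPKM, the transmembrane collagen made by neurons, whose human protein is found in amyloid plaques, which ranged from 2.36 to 12.3 RPKM. Col4a2 (6.48 RPKM) and Col4a1 (6.19 RPKM) followed. These 2 chains, which form the common trimer of basement membranes, stayed between 4.18 and 8.62 RPKM and between 4.12 and 8.64 RPKM in all libraries. Col11a2, a fibrillar chain best known from cartilage, had a mean of 3.81 RPKM, and Col1a2, the other chain of collagen I, one of 2.55 RPKM. The FACIT chain Col16a1 (2.38 RPKM) and the beaded chain Col6a1 (2.03 RPKM) came next, followed by Col8a2 (1.84 RPKM) and Col8a1 (1.41 RPKM), the short network chains of collagen VIII. The means of Col8a2 and Col8a1 came from few mice, since their medians were 0.449 RPKM and 0.181 RPKM. The spread between mice of a group was wider for collagen genes than for most genes. Its SD on the log2 scale had a median of 0.38 over the 26 members tested and 0.21 over all genes tested, and 24 of the 26 lay above the median of all genes.

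**Figure D1:**
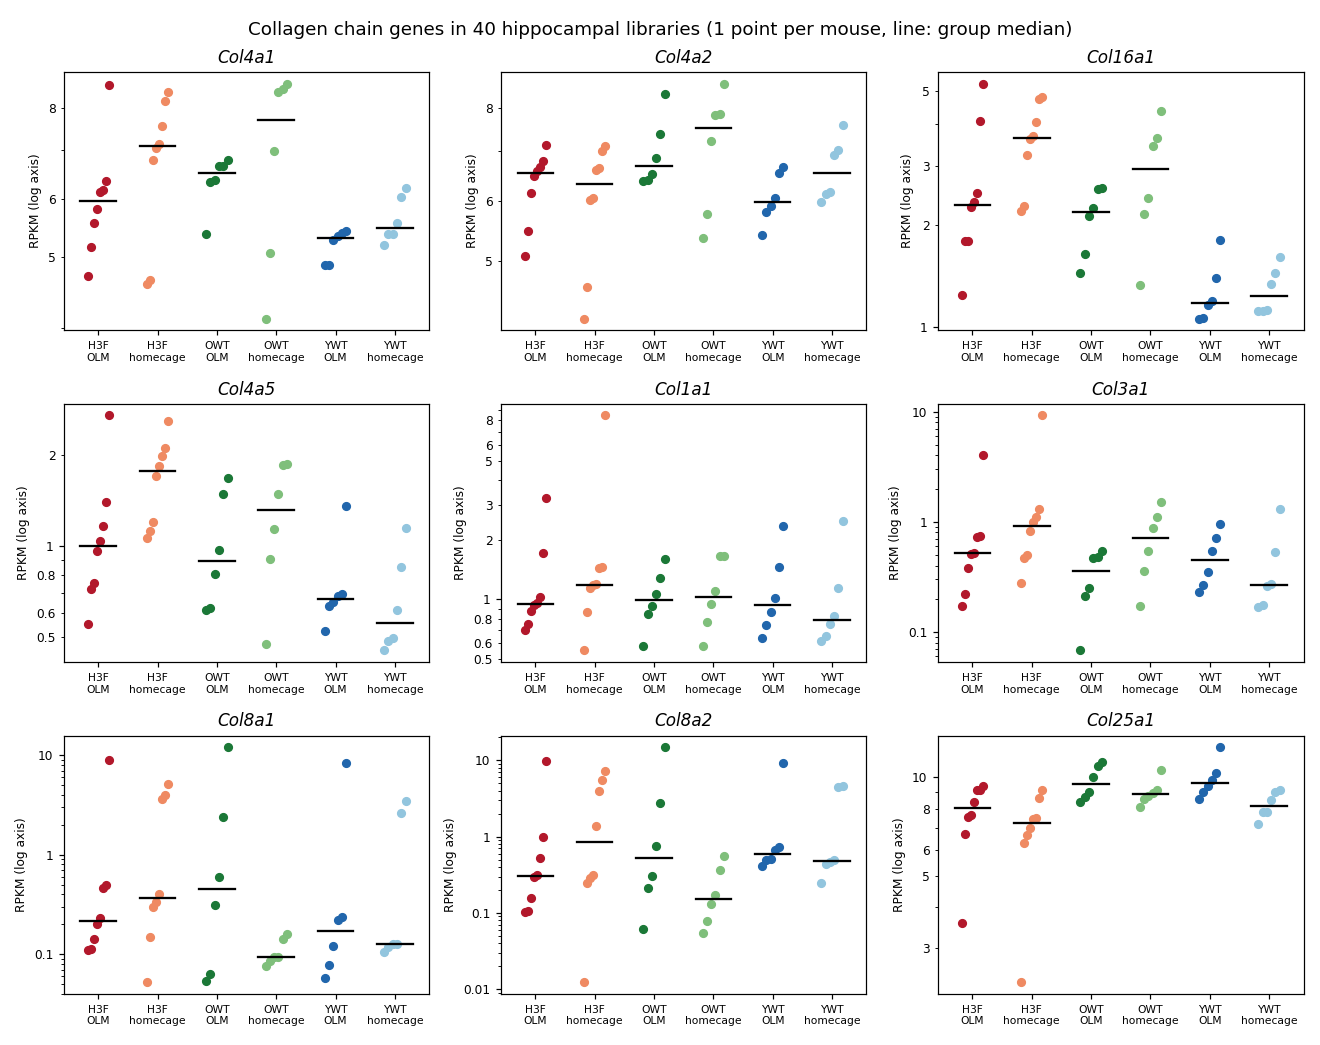
RPKM of 9 collagen chain genes on log axes, with 1 point per mouse and a line at each group median, for OLM and homecage groups of H3F (n = 8 each), OWT and YWT mice (n = 6 each). Col8a1 and Col8a2 reached 12.03 and 14.7 RPKM in single mice of groups whose medians were under 1 RPKM, Col1a1 and Col3a1 were highest in mouse H3F-HC-101B (8.47 and 9.22 RPKM), and Col16a1 had its lowest group medians in YWT mice.

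Most of the chain pairs chosen varied together from mouse to mouse. Other pairs of chains were not compared, so this is not shown to be particular to chains that share a trimer. As deviations from group means of log2(RPKM + 0.5) over 40 libraries, 8 pairs of chains were compared, and their adjusted p-values are over these 8. Col4a1 and Col4a2 had r = 0.87 and rho = 0.85 (permutation test, two-sided, p = 1e-05 for both, adjusted p = 1.3e-05 and 1.1e-05), where 1e-05 is the smallest p that 100000 resamples give. Without OWT-HC-110A and OWT-HC-114A, the libraries farthest from the median of Col4a1, r was 0.84. It ran from 0.55 to 0.98 within the 6 groups. Col4a5 and Col4a6, chains of basement membranes of smooth muscle and kidney, had r = 0.90 and rho = 0.89 (permutation p = 1e-05 for both, adjusted p = 1.3e-05 and 1.1e-05). Their r was 0.86 without the 2 farthest libraries and ran from 0.58 to 0.95 within groups.
Collagen I and III, the fibre-forming collagens of fibroblasts, behaved alike. Col1a1 and Col1a2 had r = 0.90 and rho = 0.85 (permutation p = 1e-05 for both, adjusted p = 1.3e-05 and 1.1e-05), and r = 0.91 without H3F-HC-101B and H3F-BV-113D. Within groups their r ran from 0.85 to 0.99. Col1a1 and Col3a1 had r = 0.90 and rho = 0.74 (permutation p = 1e-05 for both, adjusted p = 1.3e-05 and 1.1e-05), with r = 0.80 without the same 2 libraries and from 0.85 to 0.97 within groups. The beaded chains Col6a1 and Col6a2, neighbours on chromosome 10, had r = 0.86 and rho = 0.89 (permutation p = 1e-05 for both, adjusted p = 1.3e-05 and 1.1e-05), with r = 0.89 without the 2 farthest libraries and from 0.82 to 0.96 within groups. Col5a1 and Col5a2, which regulate the width of collagen I fibrils, had r = 0.63 and rho = 0.70 (permutation p = 6e-05 and 1e-05, adjusted p = 6.9e-05 and 1.1e-05). Their r was 0.64 without the 2 farthest libraries, ran from 0.15 to 0.92 within groups, and was 0.37 after quantile normalization (adjusted p = 0.021).
Col11a1 and Col11a2 were the exception, with r = 0.06 and rho = 0.10 (permutation p = 0.76 and 0.61, adjusted p = 0.76 and 0.61). Within groups their r ran from -0.71 to 0.58, and it was -0.01 without the 2 farthest libraries. Both chains belong to the fibrillar collagen XI, and the level of Col11a2 (3.81 RPKM) was above that of Col11a1 (1.05 RPKM).

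**Figure D2:**
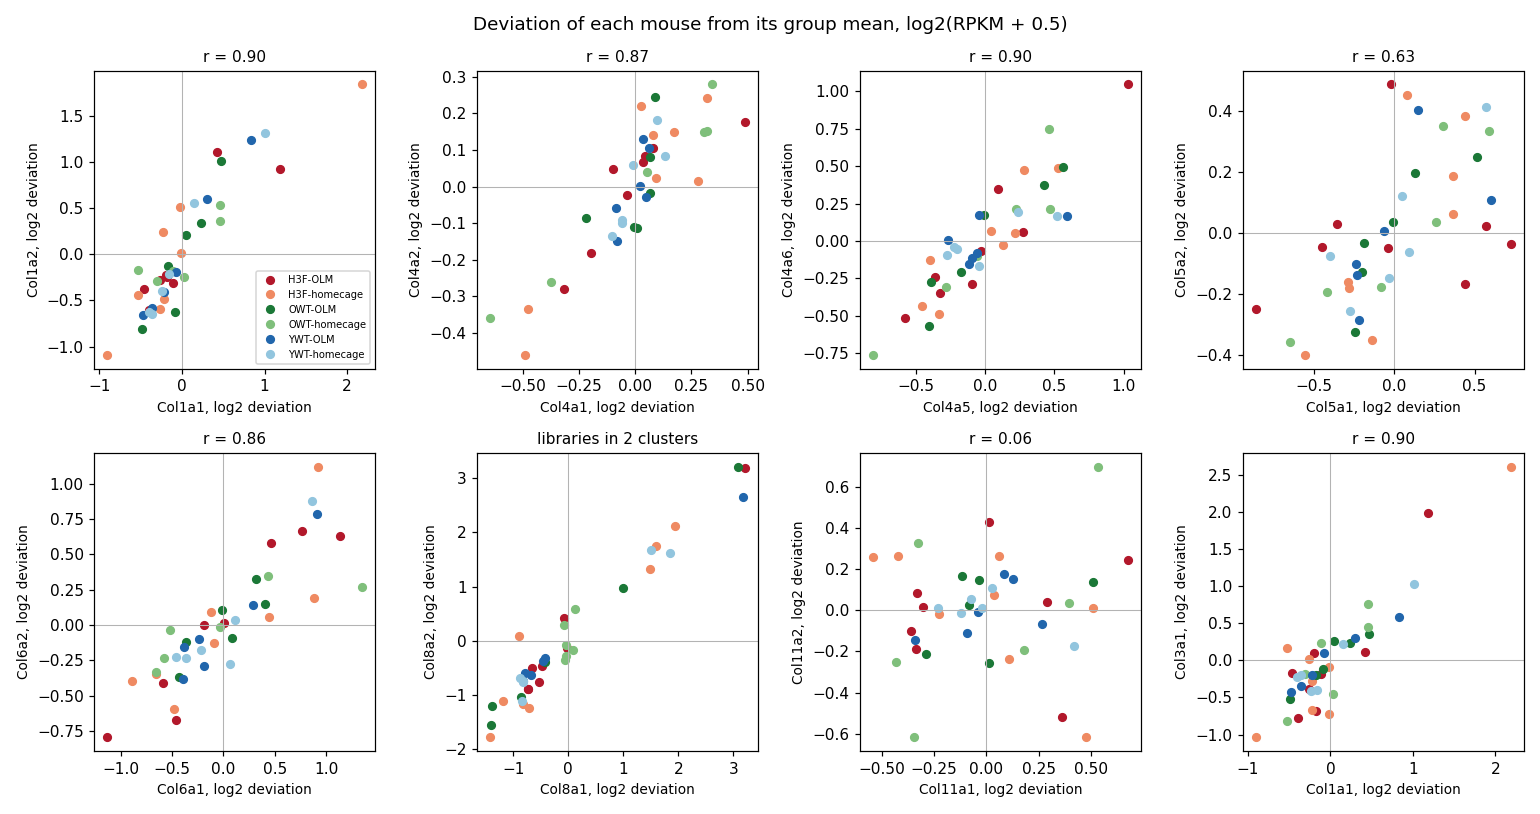
Deviation of each of 40 mice from its group mean of log2(RPKM + 0.5), for the first chain (x axis) against the second (y axis) of 8 pairs, with r over all mice given above 7 panels and colours for the 6 groups. Col1a1 and Col1a2, Col4a1 and Col4a2, and Col4a5 and Col4a6 lie along a line (r = 0.90, 0.87 and 0.90), Col11a1 and Col11a2 do not (r = 0.06), and Col8a1 and Col8a2 form 2 clusters of libraries.

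Col8a1 and Col8a2, whose products form the hexagonal lattice of corneal and vascular membranes, separated the libraries into 2 clusters. In the 9 libraries with summed choroid plexus markers above 1000 RPKM, Col8a1 stood between 2.42 and 12.03 RPKM, against 0.0525 to 0.594 RPKM in the other 31. Col8a2 stood between 2.73 and 14.7 RPKM in those 9, against 0.0124 to 1.38 RPKM in the other 31. Neither gene overlapped between the 2 sets of libraries, and how many of all genes did so was not counted. Within the 9, the chains had r = 0.96 and rho = 0.93 (exact permutation test, two-sided, p = 7.4e-05 and 0.00075, adjusted p = 0.00015 and 0.0015 over the 2 sets). There r was 0.92 without the 2 libraries farthest from the median. Within the 31, they had r = 0.54 and rho = 0.54 (permutation p = 0.0015 and 0.0019, adjusted p = 0.0015 and 0.0019), or r = 0.51 without the 2 farthest. Unlike the pairs above, group means were not removed within these 2 sets and permutation ran across groups. Differences between groups therefore enter these values.
Col9a3 ranged from 10.0 to 38.1 RPKM in the 9 libraries and from 3.11 to 10.9 RPKM in the other 31, and 8 of its 9 highest libraries were among the 9. The 9 libraries were H3F-BV-118D, H3F-HC-105B, H3F-HC-112B, H3F-HC-124B, OWT-BV-116C, OWT-BV-127C, YWT-BV-1923, YWT-HC-1931 and YWT-HC-1940. None was from the OWT homecage group, in which the summed markers stayed between 8.11 and 14.8 RPKM. Col4a3 and Col17a1, members under the minimum mean for testing, also stood higher in each of these 9 libraries than in any other library. Col4a3 had at least 0.154 RPKM in the 9 and at most 0.086 RPKM elsewhere. Col17a1 had at least 0.132 RPKM in the 9 and at most 0.049 RPKM elsewhere. The other chains looked at overlapped with these 9 libraries in part. Of their 9 highest libraries, Col1a2 had 6 among these 9, Col18a1 and Col9a2 had 5 each, Col1a1 had 4, Col3a1 had 3, Col25a1 had 2 and Col4a1 had 1. The share of choroid plexus in a punch was not measured, and its part in the levels of Col8a1, Col8a2, Col9a3, Col4a3 and Col17a1 was not tested.

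**Figure D3:**
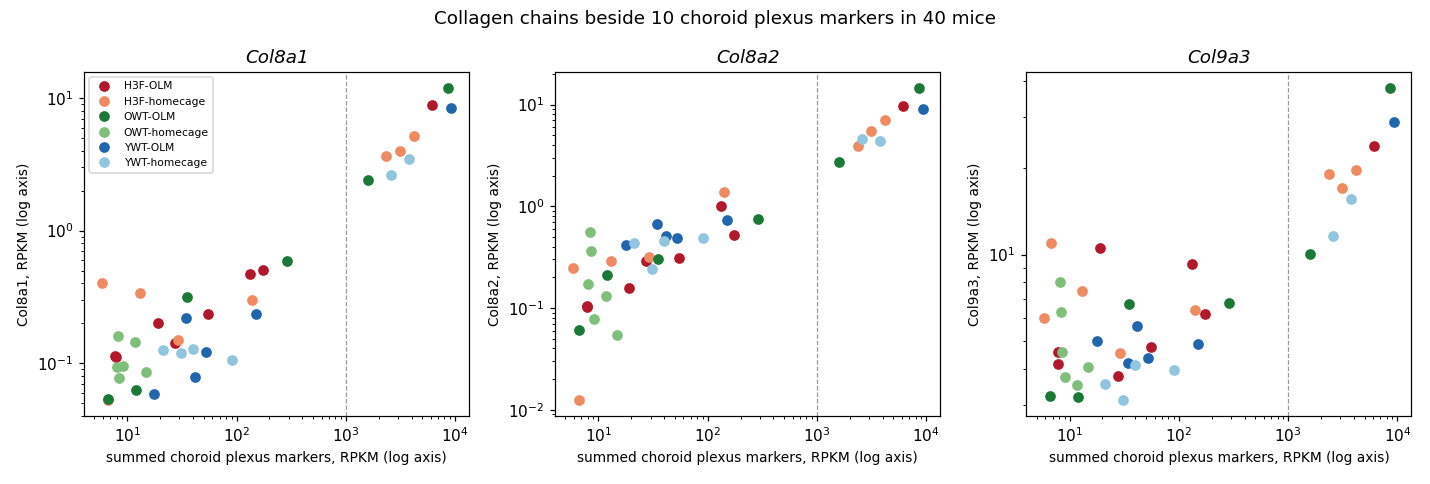
RPKM of Col8a1, Col8a2 and Col9a3 (y, log axis) against the summed RPKM of 10 choroid plexus markers (x, log axis) in 40 mice, coloured by group, with a dashed line at 1000 RPKM. The 9 libraries right of the line hold Col8a1 at 2.42 to 12.03 RPKM, and the 31 left of it at 0.0525 to 0.594 RPKM.

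Other mice stood apart for other chains. In the homecage H3F mouse H3F-HC-101B, Col1a1 was 8.47 RPKM, Col1a2 11.1 RPKM and Col3a1 9.22 RPKM, while the group medians were 1.19, 2.31 and 0.907 RPKM. Its summed choroid plexus markers were 13.1 RPKM, and its summed markers of leptomeningeal fibroblasts were 136 RPKM beside a group median of 139 RPKM. Mouse H3F-BV-113D had the highest Col1a1 (3.24 RPKM), Col3a1 (4.04 RPKM), Col4a5 (2.71 RPKM) and Col4a6 (1.64 RPKM) of the trained H3F group. Col25a1 was lowest in H3F-HC-121B, at 2.36 RPKM, where summed dentate granule markers were 14.7 RPKM, the lowest of the 40 libraries. H3F-HC-121B was also the highest of its group for summed markers of microglia (817 RPKM), CA3 (256 RPKM) and leptomeningeal fibroblasts (209 RPKM), among others. The part of these cell types in its Col25a1 was not tested.

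OWT mice were compared with YWT mice to ask how levels differed between old and young hippocampus. A gene was called at an unadjusted p under 0.05 and a limma p under 0.15 after adjustment over all genes tested. In the homecage, 4 of the 26 collagen genes tested were higher in OWT mice and 1 was lower. Over all genes tested, 32.1% were higher and 17.7% lower, so the share of collagen genes called (19.2%) was below that of all genes and is no result about the collagen genes as a group. Their median log2 fold change was 0.05, as was that of all genes tested (0.05). After quantile normalization, which moved the median of all genes by -0.15 on the log2 scale, 2 members were higher and 3 lower (Col16a1 and Col4a6 against Col19a1, Col8a2 and Col11a2), while 2492 of all genes were higher and 5270 lower, beside 4552 and 2511 without it. The count of called members was 8 without OWT-HC-110A and 3 without OWT-HC-131A. By class, 2 of 6 network chains were higher and 1 lower, 2 of 6 FACIT chains were higher, and none of 8 fibrillar, 2 transmembrane and 4 beaded, multiplexin and other chains was called.
Col16a1, a FACIT chain of the interface between fibrils and basement membranes, had 1.33, 2.93 and 4.36 RPKM (lowest, median and highest) in OWT homecage mice, against 1.11, 1.23 and 1.61 RPKM in YWT homecage mice. In 5 of 6 OWT mice it was above every YWT mouse. Its log2 fold change was 0.86 (with a standard error of 0.21, limma adjusted p = 0.00769). Col20a1, another FACIT chain, had 1.15, 1.48 and 2.28 RPKM in OWT homecage mice, against 0.827, 1.03 and 1.07 RPKM in YWT homecage mice. Its OWT and YWT homecage groups did not overlap (log2 fold change 0.44 with a standard error of 0.13, limma adjusted p = 0.0204). Among the tested members this held for Col20a1 alone, and how many of all genes did so was not counted.
The 2 basement membrane chains with neighbouring genes on the X chromosome were both higher. Col4a6 had 0.149, 0.652 and 1.35 RPKM in OWT homecage mice, against 0.151, 0.208 and 0.335 RPKM in YWT homecage mice (log2 fold change 0.59 with a standard error of 0.21, limma adjusted p = 0.0449). Col4a5 had 0.473, 1.32 and 1.87 RPKM in OWT homecage mice, against 0.451, 0.554 and 1.15 RPKM in YWT homecage mice (0.57, standard error 0.23, limma adjusted p = 0.0609). Col4a6 was above every YWT mouse in 5 of 6 OWT mice and Col4a5 in 3 of 6, and OWT-HC-110A had the lowest value of its group for both chains. Mouse OWT-HC-110A was also the OWT homecage mouse with the lowest Col4a1, Col4a2 and Col16a1 and the lowest summed microglia markers (167 RPKM, against a group median of 430 RPKM). The call of Col4a5 was lost after quantile normalization and without any 1 of 6 mice.
Col8a2 was the lower member, at 0.0548, 0.152 and 0.561 RPKM in OWT homecage mice, against 0.244, 0.476 and 4.58 RPKM in YWT homecage mice (log2 fold change -1.18 with a standard error of 0.50, limma adjusted p = 0.0779). The call of Col8a2 was lost with a model of all 40 libraries, with library weights and without any 1 of 6 mice. Of 10 choroid plexus markers, 5 were lower and none higher in the same comparison. Without the 9 libraries of high choroid plexus markers, an alternative chosen after the values were seen that leaves 6 OWT and 4 YWT homecage mice, its log2 fold change was -0.35 (limma adjusted p = 0.196). The other 4 calls held, and Col1a2 (0.49), Col3a1 (0.71) and Col18a1 (0.75) were called higher too, so that 7 were higher and none lower. In that fit 4302 of 14173 genes were higher and 1930 lower. The count of higher members is therefore no result about the collagen genes as a group.
Of 8 microglia markers, 6 were higher and 1 lower in OWT homecage mice, and their sum ran from 167 to 592 RPKM in OWT homecage mice, against 140 to 162 RPKM in YWT homecage mice. Of 10 endothelial markers, 1 was higher and 2 lower, and of 10 leptomeningeal markers, 2 were higher and 1 lower. Of 10 markers of the mural cells of vessels, 1 was higher and 3 lower. Region markers differed too. Of 6 markers of thalamus and habenula, 3 were higher and none lower. Their sum ran from 35.3 to 95.5 RPKM in OWT homecage mice, against 17.9 to 27.3 RPKM in YWT homecage mice. Lower were 3 of 6 CA1, 1 of 5 CA3 and 2 of 6 neocortex markers, with none higher. Dentate granule markers were higher in 3 and lower in 1 of 8. The part of these cell types and regions in the 5 collagen genes was not tested.

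After OLM, 4 of the 26 collagen genes were higher in OWT mice and none was lower, while 19.1% of all genes tested were higher and 8.81% lower. The share called (15.4%) was again below that of all genes. The median log2 fold change was 0.09 over the members and 0.03 over all genes tested. After quantile normalization, 2 members were higher (Col16a1 and Col4a1) and 3 lower (Col3a1, Col5a1 and Col6a2), with 1888 of all genes higher and 3057 lower, beside 2712 and 1248 without it. The count of called members was 2 without OWT-BV-106C, YWT-BV-1906 or YWT-BV-1913. By class, 2 of 6 network, 1 of 6 FACIT and 1 of 8 fibrillar chains were higher.
Col4a1 had 5.38, 6.52 and 6.78 RPKM in OWT mice after OLM, against 4.87, 5.31 and 5.44 RPKM in YWT mice after OLM. Only OWT-BV-116C lay within the range of the YWT mice. The log2 fold change was 0.27 (with a standard error of 0.06, limma adjusted p = 0.00835). Col4a2 had 6.39, 6.69 and 8.34 RPKM in OWT mice after OLM, against 5.41, 5.99 and 6.67 RPKM in YWT mice after OLM (0.19, standard error 0.07, limma adjusted p = 0.0971). Both chains of the common type IV trimer were thus higher by 0.27 and 0.19 on the log2 scale, and the groups of Col4a2 overlapped in 3 of 6 OWT mice.
Col16a1 had 1.45, 2.19 and 2.58 RPKM in OWT mice after OLM, against 1.06, 1.17 and 1.81 RPKM in YWT mice after OLM (0.54, standard error 0.14, limma adjusted p = 0.0174). It was the only member called in the homecage and after OLM. These 2 comparisons share no mouse. Col27a1, a fibrillar chain of cartilage, had 0.622, 0.729 and 0.985 RPKM in OWT mice after OLM, against 0.476, 0.563 and 0.729 RPKM in YWT mice after OLM (0.22, standard error 0.10, limma adjusted p = 0.146). The calls of Col4a2 and Col27a1 were lost without any 1 of 6 and of 8 mice, and none of the 4 was called with a model of all 40 libraries. Median-ratio scaling, quantile normalization and the regularized t also lost the calls of Col4a2 and Col27a1. Library weights lost that of Col4a2 too. Of 8 microglia markers, 6 were higher and 1 lower after OLM as well, and their sum ran from 245 to 439 RPKM in OWT mice, against 140 to 158 RPKM in YWT mice after OLM. None of the 10 choroid plexus markers was called there. Of 10 endothelial markers, 1 was higher and 2 lower. Of 10 markers of the mural cells of vessels, none was higher and 2 lower. Of 10 leptomeningeal markers, 1 was higher and none lower. All 10 had positive log2 fold changes (median 0.23, beside 0.03 over all genes tested). Among region markers, 5 of 6 of CA1 were lower, while 4 of 5 of CA3 and 3 of 8 of dentate granule cells were higher. Of 6 markers of thalamus and habenula, 1 was higher, and of 6 of neocortex, 1 was higher and 1 lower. The part of these cell types and regions in the 4 collagen genes was not tested.

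**Figure D4:**
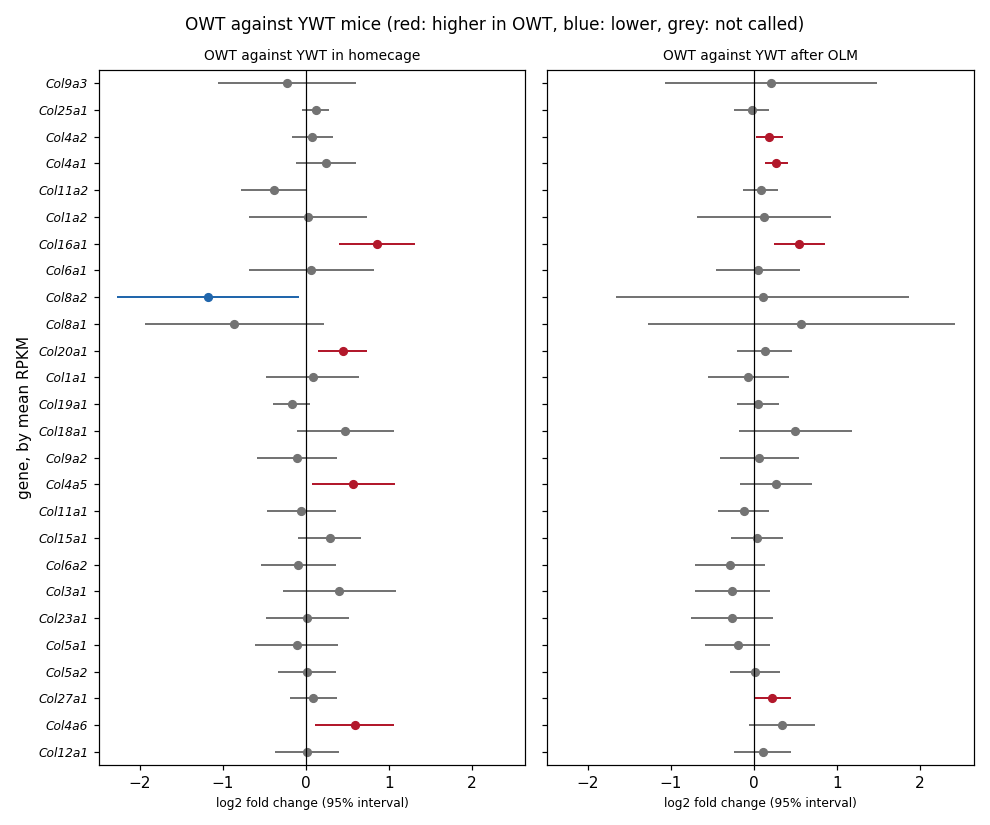
Log2 fold change of OWT against YWT mice with its 95% interval from limma for the 26 collagen genes tested, in the homecage (left) and after OLM (right), with genes ordered by mean RPKM. Red points are called higher and blue ones lower, 4 and 1 in the homecage and 4 and 0 after OLM, and grey ones are not called.

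Collagen chains are modified by hydroxylases and glycosyltransferases and folded by chaperones in the endoplasmic reticulum before secretion. Beside the counts in the lists that follow stand the 32.1% of all genes higher and 17.7% lower in the homecage, and 19.1% higher and 8.81% lower after OLM. Of 25 biosynthesis genes tested, 11 were higher and 1 lower in OWT homecage mice, with a median log2 fold change of 0.26 beside 0.05 over all genes. Those with the smallest p were Fkbp10, a collagen chaperone (0.68, limma adjusted p = 0.00221), P4ha3, a prolyl hydroxylase subunit (1.04, limma adjusted p = 0.00435), and Colgalt1, a collagen galactosyltransferase (0.40, limma adjusted p = 0.00506). After OLM, 8 were higher and 1 lower, with a median of 0.18 beside 0.03. The lysyl hydroxylase Plod3 (0.47, limma adjusted p = 0.00388) and the chaperone Ppib (0.24, limma adjusted p = 0.0437) were higher and the galactosyltransferase Colgalt2 was lower (-0.35, limma adjusted p = 0.00548).
Among 8 collagen receptors, Lair1, an inhibitory receptor of immune cells, was higher in OWT mice in the homecage (1.86, limma adjusted p = 0.00307) and after OLM (1.32, limma adjusted p = 0.000161), and the receptor tyrosine kinase Ddr1 was higher in the homecage (0.56, limma adjusted p = 0.0235). Lair1 is made by myeloid cells among others, and the microglia markers differed as given above. The part of these cells in the level of Lair1 was not tested. The median log2 fold changes of the 8 receptors were 0.30 in the homecage and 0.18 after OLM, beside 0.05 and 0.03 over all genes. Of 11 matrix proteases and inhibitors, 3 were higher in the homecage and 2 higher and 1 lower after OLM. These shares of higher genes are below those of all genes, and the list medians were 0.15 and 4.12e-05 on the log2 scale. The inhibitor Timp1 was higher by 3.53 and 2.21 on the log2 scale (limma adjusted p = 0.00191 and 0.0072), the gelatinase Mmp2 by 0.98 and 0.92 (limma adjusted p = 0.0201 and 0.0314), Mmp14 by 1.23 in the homecage (limma adjusted p = 0.0333), and Timp4 was lower after OLM (-0.29, limma adjusted p = 0.0299).
Of 15 proteoglycans and matrix glycoproteins, 5 were higher and 1 lower in the homecage and 2 higher after OLM. These are close to the share of higher genes over all genes in the homecage and below it after OLM. Their median log2 fold change was -0.15 in the homecage, beside 0.05 over all genes, and 0.17 after OLM, beside 0.03. Sparc, a collagen-binding glycoprotein, was higher by 0.52 and 0.51 (limma adjusted p = 0.00221 and 0.0564) and Thbs2, a thrombospondin, by 0.90 and 0.54 (limma adjusted p = 0.00477 and 0.0588). Tnxb, a tenascin, was higher in the homecage (0.36, limma adjusted p = 0.00899). Of 15 basement membrane partners, 5 were higher and 1 lower in the homecage and 2 higher and 1 lower after OLM. These are again close to and below the shares of all genes, and the list medians were 0.14 and 0.13. Smoc2 was higher by 0.44 and 0.48 (limma adjusted p = 0.0204 and 0.00235), the laminin chain Lamc1 by 0.33 in the homecage (limma adjusted p = 0.0419) and Lamb1 by 0.25 after OLM (limma adjusted p = 0.0515), while Sparcl1, an astrocyte glycoprotein, was lower in both (log2 fold changes -0.54 and -0.31, limma adjusted p = 0.00502 and 0.00458).

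OLM mice were compared with homecage mice of the same age and genotype to ask which genes training changed. No collagen gene was called in YWT, OWT or H3F mice. Over all genes tested, limma called 0.31% higher and 0.113% lower in YWT mice, and 0% higher and 0% lower in OWT and in H3F mice. At an unadjusted p under 0.05, 1 collagen gene was higher and none lower in YWT mice, 1 higher and 1 lower in OWT mice, and 1 higher and 3 lower in H3F mice, of 26 tested. At that threshold 10.2%, 7.94% and 17.1% of all genes tested passed in YWT, OWT and H3F mice, so these counts are no result about the collagen genes. The counts over all genes moved with the libraries and the model, reaching 774 higher and 492 lower in YWT mice without the 9 libraries of high choroid plexus markers, and 1352 higher and 2280 lower in H3F mice with a model of all 40 libraries.
In YWT mice the smallest p was that of Col25a1, the neuronal transmembrane chain, with 8.56, 9.58 and 12.3 RPKM after OLM, against 7.16, 8.17 and 9.13 RPKM in the homecage. Its log2 fold change was 0.24 (with a standard error of 0.08, limma adjusted p = 0.338). Col4a1 (-0.10) and Col20a1 (-0.13) followed, with limma adjusted p = 0.518 and 0.585. Without the 9 libraries of high choroid plexus markers, Col9a3 was called higher in YWT mice after OLM (0.35, limma adjusted p = 0.0932, with 5 OLM and 4 homecage mice), where 8.93% of all genes were called, the only collagen call that this alternative added in a training comparison.
In OWT mice Col11a2 had 3.44, 4.49 and 4.79 RPKM after OLM, against 1.66, 2.65 and 4.87 RPKM in the homecage (log2 fold change 0.51 with a standard error of 0.19, limma adjusted p = 0.53). Col20a1 stood at 0.589, 1.01 and 1.72 RPKM after OLM, against 1.15, 1.48 and 2.28 RPKM in the homecage (-0.44, limma adjusted p = 0.53). Col3a1 came next (-0.52, limma adjusted p = 0.53). Without OWT-HC-110A, Col11a2 was called higher and Col3a1 and Col16a1 lower, 11.5% of the members beside 13.1% of all genes.
In H3F mice the median log2 fold change of the 26 members was -0.22, beside -0.01 over all genes tested. The same H3F homecage mice enter the comparison with OWT homecage mice, where the median of the members was 0.13, beside -0.02. Col4a6 stood at 0.226, 0.435 and 1.64 RPKM after OLM, against 0.529, 0.961 and 1.53 RPKM in the homecage (-0.48, standard error 0.21, limma adjusted p = 0.257). The transmembrane chain Col23a1 fell short of a call, with -0.28 on the log2 scale (limma adjusted p = 0.265) and so did the FACIT chain Col19a1, with 0.36 (limma adjusted p = 0.276). Without H3F-BV-113D, the trained mouse with the highest Col4a5 and Col4a6, 7 members were called, namely Col19a1 higher and Col4a5, Col4a6, Col5a2, Col15a1, Col16a1 and Col23a1 lower. These are 26.9% of the members, and without that mouse 21.8% of all genes were called too (916 higher and 2179 lower). Without H3F-HC-112B, Col4a6 alone was called lower, while 593 of all genes were called higher and 1671 lower. The sum of the microglia markers ran from 178 to 517 RPKM after OLM and from 284 to 817 RPKM in the homecage in H3F mice. All 8 microglia and all 10 choroid plexus markers had negative log2 fold changes (medians -0.72 and -0.71) and all 8 dentate granule markers positive ones (median 0.72), none of them called. The part of these cell types in the median of the collagen genes was not tested.
Of the other lists, P4ha1, a prolyl hydroxylase subunit, was higher after OLM in YWT mice (0.32, standard error 0.07, limma adjusted p = 0.126), the only gene of the 5 lists of enzymes and partners called in a training comparison.

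H3F mice were compared with OWT mice to ask which levels HDAC3 deletion changed at the same age. No collagen gene was called in the homecage or after OLM. Of all genes tested, limma called 0% higher and 0.127% lower in the homecage, and 0.0141% higher and 0.254% lower after OLM. At an unadjusted p under 0.05, 3 of 26 members were higher and 1 lower in the homecage, where 12.7% of all genes passed, and none in either direction after OLM, where 4.76% of all genes did. The homecage count is close to that share and is no result about the collagen genes. The median log2 fold change of the members was 0.13 in the homecage, beside -0.02 over all genes tested. After OLM it was -0.07, beside -0.03.
In the homecage the smallest p values were those of Col9a3, Col8a1 and Col19a1. Col9a3 had 4.55, 9.21 and 19.6 RPKM in H3F mice, against 3.51, 4.33 and 7.997 RPKM in OWT mice (log2 fold change 0.97 with a standard error of 0.33, limma adjusted p = 0.306). Col8a1 had 0.0525, 0.369 and 5.18 RPKM in H3F mice, against 0.0770, 0.0945 and 0.160 RPKM in OWT mice (1.28, limma adjusted p = 0.365). The 3 high H3F mice were H3F-HC-105B, H3F-HC-112B and H3F-HC-124B, all among the 9 libraries of high choroid plexus markers. Without the 9 libraries the log2 fold changes were 0.45 for Col9a3 (limma adjusted p = 0.438) and 0.27 for Col8a1 (limma adjusted p = 0.422). Col19a1, a FACIT chain, had 0.336, 0.873 and 1.49 RPKM in H3F mice, against 1.08, 1.19 and 1.83 RPKM in OWT mice (-0.39, limma adjusted p = 0.369).
After OLM, Col25a1 (-0.35), Col20a1 (0.39) and Col4a2 (-0.14) had the smallest p, each at an adjusted p of 1 from limma. Among the enzymes, Bmp1, which cleaves the C-terminal propeptide of procollagen, was lower in H3F homecage mice (-0.65, standard error 0.13, limma adjusted p = 0.146).

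**Figure D5:**
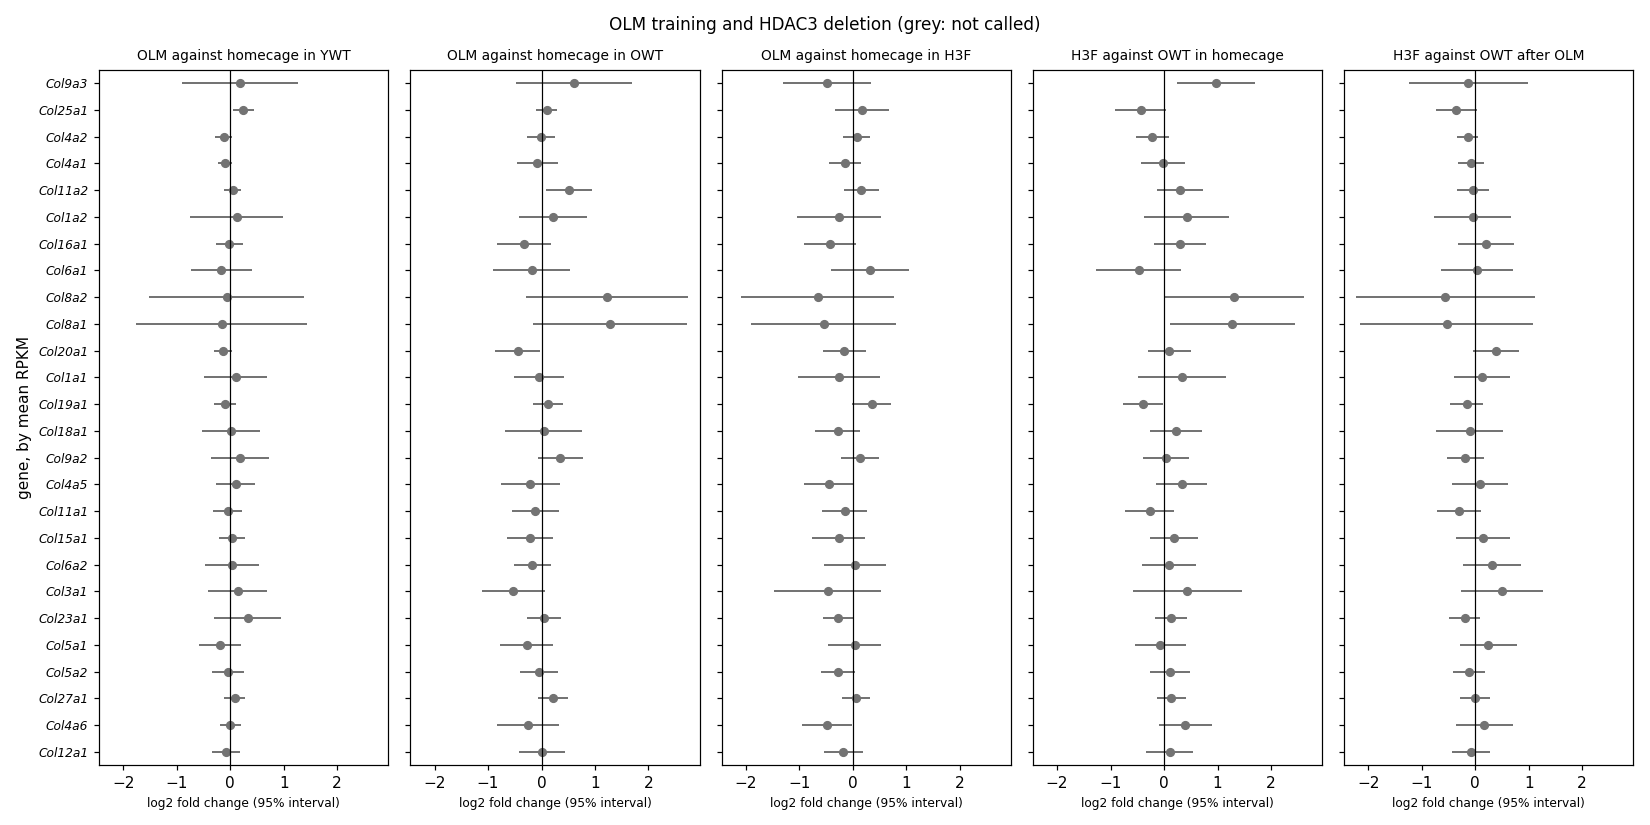
Log2 fold change with its 95% interval from limma for the 26 collagen genes tested, in 5 comparisons on a common axis: OLM against homecage in YWT, OWT and H3F mice, and H3F against OWT in the homecage and after OLM. No gene was called, and the intervals of Col8a1 and Col8a2 are the widest in each panel.

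The differences in training effect were tested directly. Between H3F and OWT mice no collagen gene was called (0% higher and 0% lower over all genes tested), and none had an unadjusted p under 0.05. The median difference of the 26 members was -0.17, beside -0.005 over all genes tested. Col8a1 (-1.81), Col8a2 (-1.88) and Col23a1 (-0.32) had the smallest p (limma adjusted p = 0.997 for each). Without the 9 libraries of high choroid plexus markers, the differences of Col8a1 and Col8a2 were -0.25 and -0.25. Between OWT and YWT mice no collagen gene was called either (0% higher and 0% lower), and Col11a2 had an unadjusted p under 0.05 (difference 0.47, standard error 0.21, limma adjusted p = 0.496). Col3a1 (-0.66) and Col20a1 (-0.31) followed, with limma adjusted p = 0.516 and 0.532. Intervals of several members reached past 1 on the log2 scale, so that changes of that size could not be told from none in these groups.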

How the data were processed

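RNA of dorsal hippocampus punches from 40 mice, grouped by their labels, was measured as RPKM. The authors filtered single reads of 50 bases with CASAVA 1.8.2, aligned them to mm10 with ELAND and Bowtie, kept reads placed uniquely, and deposited RPKM values, which scale reads by exon length and by mapped reads. Both deposited tables held identical RPKM columns. The columns of p-values and fold changes between groups in one table were not used. No 2 libraries were identical. Read totals are not in the RPKM values, so the relative depth of libraries was estimated from 1627 genes with a value above 0 in 4 to 16 libraries, and RPKM were not changed by it.

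Comparisons used log2(RPKM + 0.5) of genes with a mean of at least 0.5 RPKM and limma 3.58.1 in R 4.3.3, with the libraries of the groups compared. Limma stands in for Cyber-T, which the study ran on RPKM without logs. A gene was called where its p was under 0.05 and its p adjusted over all genes tested (Benjamini-Hochberg) was under 0.15, as in the study. Folds are on the log2(RPKM + 0.5) scale and understate changes of low genes. Pairs of chains were correlated with permutations of 100000 resamples within groups. Python 3.11.15 with scipy 1.17.1 and matplotlib 3.10.9 served for the rest, and promoter windows are those of RefSeq on GRCm38.p6. The scripts were tested on simulated data.

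The members, the lists of enzymes, receptors, proteases, proteoglycans, basement membrane genes and markers of 12 cell types, and the pairs were chosen with earlier results of these data known. Genes named are the 10 highest members, called members, the 3 with the smallest p where none was called, both chains of a pair, and up to 3 called genes of a list in a comparison. Other genes named for single mice, under an alternative, or beside the choroid plexus markers were chosen after their values were seen. Alternatives were other pseudocounts, filters, scalings and thresholds, a model of all libraries, library weights, a regularized t, leaving out each library and, added later, leaving out 9 libraries.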

Additional observations from a re-analysis of the deposited data

Results flagged for a closer look

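The 22 named collagen genes gave 132 sets of values of 1 gene in 1 group. In 19 of them the highest or lowest mouse stood apart from the next one by more than Dixon's 95% criterion on log2(RPKM + 0.5), in 11 libraries. Chance gives such a value in about 1 in 20 sets.

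Mouse YWT-BV-1923, which had the highest summed choroid plexus markers of all libraries (9270 RPKM), was the highest of its group for 4 chains. Its values were 28.9823 RPKM for Col9a3 (next highest 5.64 RPKM), 9.13906 RPKM for Col8a2 (next 0.729 RPKM), 8.38526 RPKM for Col8a1 (next 0.236 RPKM) and 1.35635 RPKM for Col4a5 (next 0.693 RPKM). Mouse H3F-BV-118D, with 6132 RPKM of these markers, was the highest of its group for Col8a2 at 9.68149 RPKM (next 1.001 RPKM) and for Col8a1 at 8.91181 RPKM (next 0.502 RPKM).

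Mouse H3F-HC-101B was the highest of its group for Col1a1 at 8.4697 RPKM (next 1.45 RPKM), for Col3a1 at 9.21983 RPKM (next 1.29 RPKM) and for Col6a2 at 2.44199 RPKM (next 1.04 RPKM), chains of fibroblasts. Mouse H3F-BV-113D was the highest of its group for Col3a1 at 4.03543 RPKM (next 0.741 RPKM) and for Col5a2 at 0.97999 RPKM (next 0.576 RPKM). Col6a2 stood at 1.98233 RPKM in YWT-HC-1931, another library of high choroid plexus markers, where the next highest of the group had 0.882 RPKM.

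The neuronal chain Col25a1 was the lowest of its group in H3F-HC-121B at 2.36227 RPKM (next 6.29 RPKM) and in H3F-BV-108D at 3.58944 RPKM (next 6.68 RPKM). H3F-HC-121B had the lowest summed dentate granule markers of all libraries (14.7 RPKM). It had the highest summed markers of its group for microglia (817 RPKM) and CA3 (256 RPKM), among others. Col4a1 was the lowest of its group in OWT-BV-116C at 5.38188 RPKM (next 6.33 RPKM) and Col20a1 in YWT-HC-1907 at 0.82718 RPKM (next 0.997 RPKM). The transmembrane chain Col23a1 was the lowest in H3F-HC-115B at 0.41814 RPKM (next 0.776 RPKM) and in OWT-BV-104C at 0.46709 RPKM (next 0.787 RPKM), and Col11a1 was the highest in OWT-BV-104C at 1.68229 RPKM (next 1.05 RPKM).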

How the results depend on the processing

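No collagen gene named as called changed direction under any alternative run. In OWT against YWT homecage mice, 5 of 26 collagen genes were called. With no filter 9 of 44 were called, beside 5166 of all 20953 genes higher and 3091 lower. Library weights called 9 of 26 (9 higher), beside 5159 of all 14173 genes higher and 2764 lower. Of the 26, 3 were called at an adjusted p under 0.05 and 8 with the regularized t on RPKM. Leaving out 1 mouse gave 3 to 8. After OLM, 4 of 26 were called. With no filter 7 of 44 were called, beside 2707 of all genes higher and 1320 lower. Of the 26, 2 were called after median-ratio scaling and 0 with a model of all 40 libraries. An adjusted p under 0.05 gave 2, the regularized t gave 2, and leaving out 1 mouse gave 2 to 4. Apart from the fits without 1 mouse, each of these shares of members was below that of all genes. These counts are therefore no result about the collagen genes as a group. For OLM against homecage, none was called in OWT mice, but 5 with library weights (16.7% of all genes) and 0 to 3 without 1 mouse (3 without OWT-HC-110A). In H3F mice none was called, but 14 with library weights (53.8% of members and 50.8% of all genes), 4 with all 40 libraries (15.4% and 25.6%) and 0 to 7 without 1 mouse (7 without H3F-BV-113D). In YWT mice 1 was called without the 9 libraries of high choroid plexus markers (8.93% of all genes). In H3F against OWT homecage mice none was called, but 4 with library weights (11.6% of all genes), 1 with all 40 libraries (230 of all genes higher and 1335 lower) and 1 with the regularized t (0.515%). The difference in training effect gave 1 call with library weights (5.62% of all genes) between H3F and OWT mice. Between OWT and YWT mice it gave 4 with library weights (25.5%) and 0 to 1 without 1 mouse (1 without OWT-HC-110A). The cause was not tested. The call of Col20a1 was lost after quantile normalization (limma adjusted p = 0.232), and those of Col16a1 and Col4a1 after OLM with all 40 libraries (0.166 and 0.323). Median-ratio scaling gave 3640 genes higher and 3445 lower over all genes in the homecage comparison of OWT and YWT mice. No paired analysis was possible because each mouse number occurs once and pairs no samples. Depth spanned 3.06-fold and no read totals were used, so counting error of chains under 1 RPKM was not separated from the spread between mice.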
